A study of Mus musculus with 12 samples.

Results

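The translation initiation factor genes were the 56 genes, of 35652 gene rows in the tables of cultured cells and fetal germ cells, whose symbol begins with Eif followed by a digit from 1 to 6. The choice used symbols alone and left out pseudogene symbols. The P7 tables use another gene list of 34896 genes, and 55 of the 56 were found in it by Entrez identifier, all but Eif2ak1. The study measured messenger RNA with SC3-seq, which reads only the 3′ ends of transcripts and starts from little RNA that is amplified, in 12 mouse libraries of 6 groups with 2 libraries each. The in vivo groups were germ cells of the testis at embryonic days 16 and 17 (E16 and E17) and postnatal day 7 (P7), all of genotype Vasa-RFPTg/0, in which a fluorescent reporter is named for the germ cell gene Vasa. The cultured groups were GSCs, the usual abbreviation of germline stem cells, of a line carrying Acrosin-EGFP and beta-Actin-EGFP (AAG). They were 2 sets labelled Stag3 KO (KO1 and KO2) and 1 set labelled WT, and all 3 carry the EGFP transgenes. STAG3 is a subunit of cohesin, the ring complex that holds and loops chromosomes. The labels do not say whether the libraries of a group came from separate cultures or animals, nor whether KO1 and KO2 are separate clones, so the tests measure the spread between these libraries.

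Initiation brings a ribosome to the start codon of a messenger RNA. The factor eIF2 carries the initiator tRNA to the small ribosomal subunit with the help of eIF1, eIF1A, eIF3 and eIF5, while the cap-binding complex eIF4F (the cap binder eIF4E, the helicase eIF4A and the scaffold eIF4G) recruits the messenger RNA, and eIF5B then joins the large subunit. Cells adjust the process through kinases that phosphorylate eIF2, through its exchange factor eIF2B, and through the eIF4E-binding proteins, which compete with eIF4G for eIF4E and are released under mTORC1 signalling. In the male germline, fetal germ cells stop dividing before birth and resume around birth, and the spermatogonia that follow give rise to the stem cells from which GSC cultures are derived.

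Total counts ran from 1938644 to 4596607 a library, so that 3 counts, the limit that a count of 0 allows, correspond to 0.748 to 1.73 reads per 1000000 (RPM). All 10 germ cell markers, such as Ddx4 and Dazl, were above 3 counts in every library of each group except KO2, where 9 of 10 were, and their summed level was 3407 to 5697 RPM. Stag3 itself had 295 and 304 RPM in KO1 and 137 and 152 RPM in KO2, against 385 and 420.4 RPM in WT GSCs. Every KO library was lower than both WT libraries. The labels do not say which part of the gene was deleted, so 3′ end reads check them only in part. Spike-in RNA (ERCC) took 1.22% and 1.52% of all counts at E16, 0.194% and 0.231% at E17, 4.69% and 5.85% at P7 and 2.798% to 3.41% in GSCs. Levels in RPM are relative to the rest of the transcriptome, and fewer cells of a type cannot be told apart from less RNA per cell. Spike-in scaling, used below, takes only the ERCC counts of each library. The amount of spike-in per cell or per input RNA did not enter it, so directions under it are not absolute levels. A difference between the P7 tables and the others also cannot be told apart from the difference in gene list.

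Of the 56 genes, Eif4e1b, an eIF4E relative of the germline, had 0 counts in every library, which at this depth allows up to 1.73 RPM. Eif2s3y, the Y-linked copy of eIF2 gamma, was not analysed here. The symbol rule also took in Eif2c5, which is annotated as a long noncoding RNA and is not an initiation factor. In each fit 54 of the 56 passed the filter on low counts, leaving out Eif4e1b with Eif4a3l1 in the GSC fit and Eif4e1b with Eif2ak1 in the others. Whether counting used strand is not given in the sources used here, and 25 of the 56 genes overlap another annotated gene, among them Eif5b (with Rev1), Eif3m (with Ccdc73) and Eif4enif1 (with Sfi1), so reads from such partners cannot be told apart.

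The summed level of the 55 genes present in both gene lists was 10933 ± 323 RPM at E16, 11582 ± 201 RPM at E17, 13794 ± 11.9 RPM at P7, 14302 ± 189 RPM in KO1, 14420 ± 142 RPM in KO2 and 13822 ± 211 RPM in WT GSCs (SD, n = 2 each). The eIF3 genes accounted for little of that spread, with group means between 5138 and 5451 RPM. The cap and scanning group had 1358 ± 2.31 RPM at E16, 1852 ± 1.34 RPM at E17, 2505 ± 14.3 RPM at P7 and 2691 ± 63.6 RPM in WT GSCs (SD, n = 2 each). In the map of all genes by library, the fetal columns differ from the WT columns in both directions, whereas the KO columns stay close to WT outside a few genes.

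**Figure D1:**
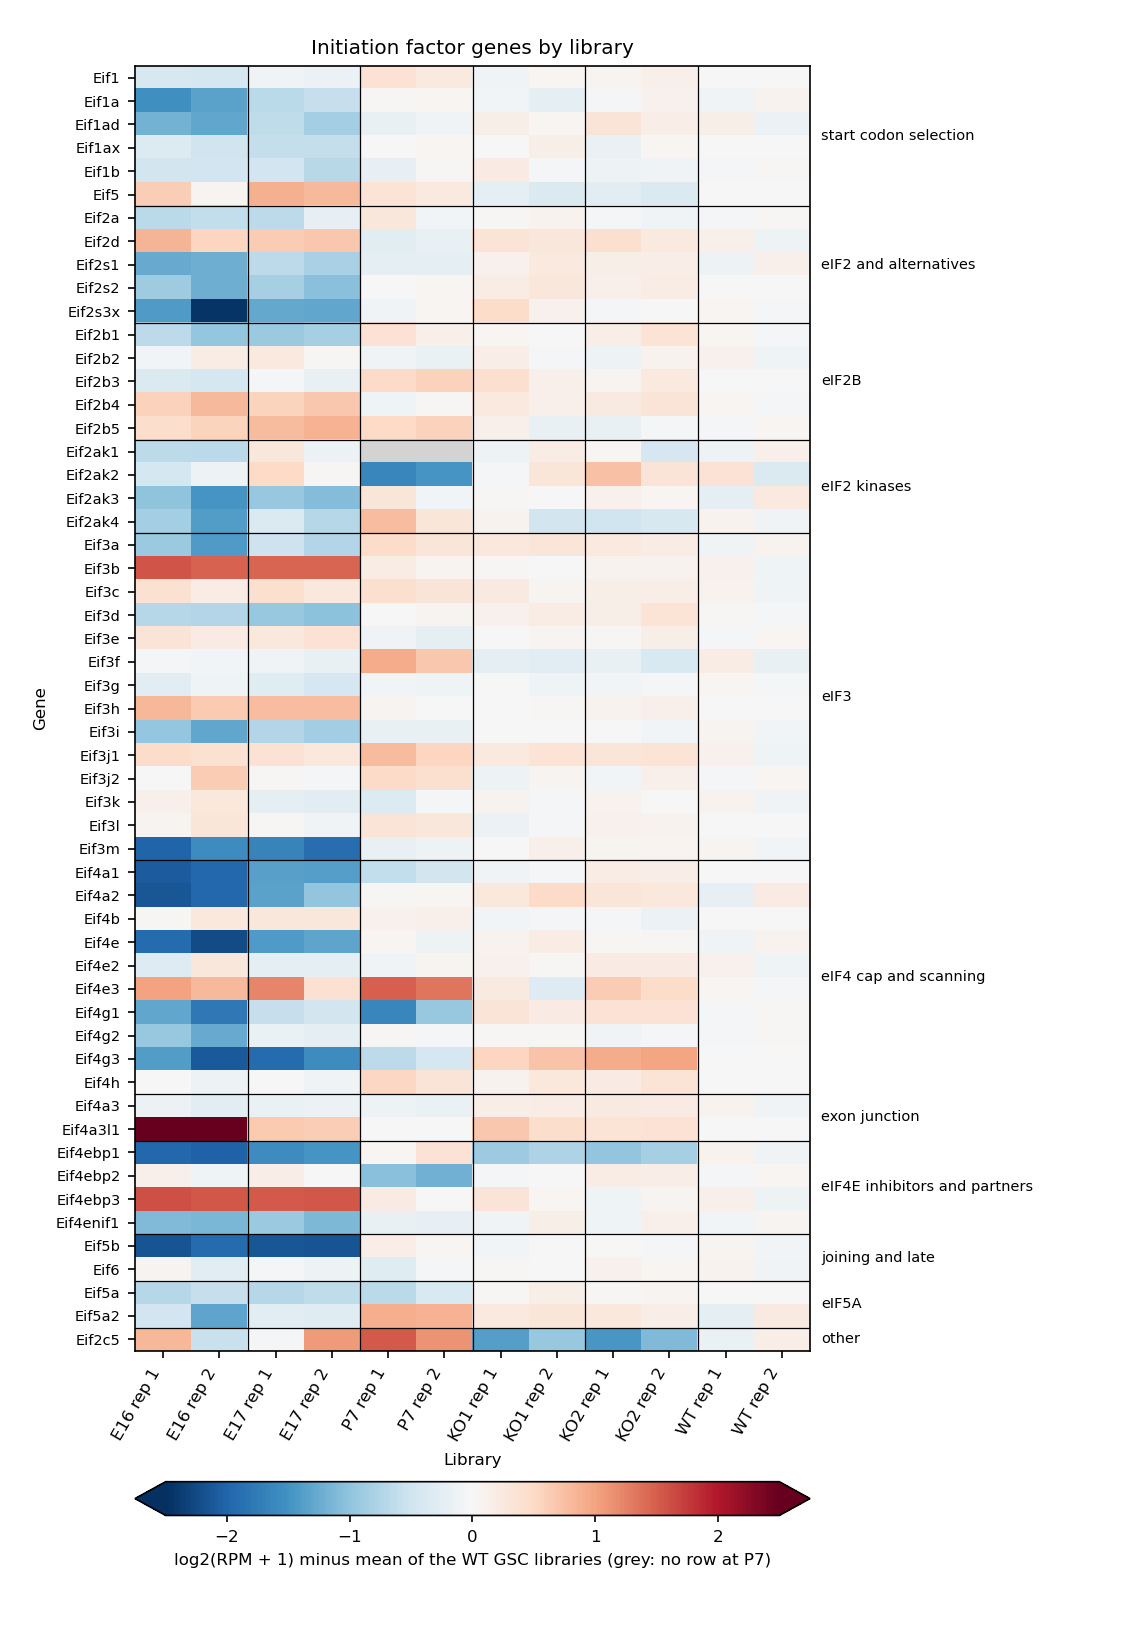
Level of 55 genes (rows, by role; Eif4e1b is left out at 0 counts) in each of the 12 libraries (columns), as log2(RPM + 1) minus the mean of the WT GSC libraries; red is higher and blue is lower, relative to the rest of the transcriptome. Eif5b, Eif3m and most cap-binding genes are blue at E16 and E17, while Eif3b and Eif4ebp3 are red. Eif4a3l1 at E16 lies beyond the colour scale. With spike-in scaling all 54 tested genes rose for the mean of E16 and E17 against WT, where 14663 of 15827 genes were called. E16 alone was not tested against WT.

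The first comparison sets the GSCs labelled Stag3 KO against those labelled WT. The main differences were a lower level of Eif4ebp1 and a higher level of Eif4g3 in both KO sets. Across the mean of KO1 and KO2 against WT, 3 of 54 genes rose (5.56%, against 8.64% of the 11890 genes tested) and 4 fell (7.41%, against 10.6%), by edgeR's quasi-likelihood test at an adjusted p under 0.05. Together 13.0% of the genes were called, against 19.2% of all genes. The count of rises rested on the processing: 1 rose with DESeq2, 1 with spike-in scaling and 8 with total count scaling. Without 1 library 5 rose (WT replicate 1 left out) or 1 rose (KO1 replicate 2, KO2 replicate 1 or KO2 replicate 2 left out). Its median log2 fold change was 0.0097, and that of all genes tested was 0.0021. KO1 against WT had 2 that rose (3.70%, against 6.24%) and 4 that fell (7.41%, against 7.4%), and KO2 against WT had 1 that rose (1.85%, against 7.19%) and 4 that fell (7.41%, against 8.45%), where 13.6% and 15.6% of all genes were called either way. With total count scaling 4 rose for KO1 and 5 for KO2. Leaving out WT replicate 2 gave 4 rises for KO1, and leaving out WT replicate 1 gave 4 for KO2.

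Eif4ebp1, at chr8:27260327-27275656 (+ strand) in GRCm38.p6, encodes the best studied of the proteins that sequester eIF4E. It had 103 and 114 RPM in KO1 and 97.5 and 108 RPM in KO2, against 206 and 183 RPM in WT GSCs. Every KO library lay below both WT libraries. The log2 fold change of the KO mean over WT was -0.93 ± 0.09 (SE; edgeR adjusted p = 1.2e-14), with -0.89 for KO1 and -0.97 for KO2, and the call was kept in every alternative processing tried. Its relatives did not pass: Eif4ebp2 had 39.7 and 40.8 RPM in KO1 and 46.98 and 46.6 RPM in KO2, against 39.8 and 42.9 RPM in WT GSCs, and Eif4ebp3 had 92.4 and 76.1 RPM in KO1 and 68.04 and 77.7 RPM in KO2, against 80.3 and 67.5 RPM in WT GSCs. The KO and WT libraries overlapped for both.

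Eif4g3, at chr4:137991779-138207086 (+ strand), encodes an eIF4G scaffold. Its level was 104 and 117 RPM in KO1 and 135 and 140.4 RPM in KO2, against 71.6 and 70.02 RPM in WT GSCs. All 4 KO libraries lay above both WT libraries, and KO2 above KO1. The log2 fold change over WT was 0.75 ± 0.11 (SE; edgeR adjusted p = 2.7e-08) for the KO mean, 0.59 ± 0.12 for KO1 and 0.91 ± 0.12 for KO2, and it too passed in every alternative. The difference between KO1 and KO2, -0.33 ± 0.12 (SE), did not pass. For Eif4g1, the more commonly studied scaffold, levels were 111 and 103 RPM in KO1 and 114 and 115 RPM in KO2, against 87.4 and 90.95 RPM in WT GSCs. These groups did not overlap either, but the log2 fold change of 0.26 ± 0.10 missed the threshold (edgeR adjusted p = 0.062). Eif4g2, a scaffold that lacks the eIF4E-binding part, had 614 and 620.4 RPM in KO1 and 567 and 594 RPM in KO2, against 589 and 622 RPM in WT GSCs, and these ranges overlapped.

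Eif5, which encodes the protein that triggers GTP hydrolysis by eIF2, had 264 and 242 RPM in KO1 and 255 and 242 RPM in KO2, against 312 and 309 RPM in WT GSCs. All KO libraries lay below WT, with a log2 fold change of -0.36 ± 0.07 (SE; edgeR adjusted p = 1.3e-04). In each set alone the call was lost in some alternatives, at -0.28 for KO1 without KO1 replicate 2 and -0.34 for KO2 without KO2 replicate 2, and at -0.30 for KO2 with spike-in scaling. Smaller differences rested on single libraries. Eif3f, an eIF3 subunit, had 227 and 219.6 RPM in KO1 and 237 and 205 RPM in KO2, against 304 and 236 RPM in WT GSCs, and its log2 fold change of -0.33 ± 0.08 (SE) became -0.12 and missed the threshold without WT replicate 1. One WT library lay inside the KO range. Eif4a2, an eIF4A helicase, had 215 and 246 RPM in KO1 and 219 and 213 RPM in KO2, against 154 and 205 RPM in WT GSCs, all KO libraries being higher, and its 0.26 ± 0.09 (SE) became 0.09 without the same library, a call lost in 6 of 11 alternatives, among them DESeq2 and spike-in scaling. Eif3a, the largest eIF3 subunit, had 325 and 336 RPM in KO1 and 322 and 307 RPM in KO2, against 255 and 286 RPM in WT GSCs, again with all KO libraries higher. Its log2 fold change was 0.20 ± 0.07 (SE), a call lost in 8 of 11 alternatives, among them leaving out any 1 library other than WT replicate 2. Eif2c5 fell as well, at 2.35 and 3.49 RPM in KO1 and 2.16 and 3.05 RPM in KO2, against 6.81 and 8.72 RPM in WT GSCs (log2 fold change -1.54 ± 0.42, SE), although DESeq2 and leaving out WT replicate 2 each ended the call; it lies under the level set for named genes and is given because it was 1 of the 4 calls.

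The other roles held no call in GSCs. None of the 5 eIF2 and alternative genes, the 5 eIF2B subunits, the 4 eIF2 kinases or the pair of eIF5A genes passed for the KO mean by edgeR, with 2, 0, 1 and 0 of them at an unadjusted p under 0.05. Of the 4 kinases, each answering to a different stress, Eif2ak4 (GCN2, amino acid shortage) had 35.02 and 23.7 RPM in KO1 and 23.2 and 24.97 RPM in KO2, against 35.1 and 31.1 RPM in WT GSCs. Eif2s3x, the X-linked eIF2 gamma gene, had 46.5 and 35.96 RPM in KO1 and 32.4 and 33.3 RPM in KO2, against 34.9 and 32.1 RPM in WT GSCs, and Eif5a had 1290.3 and 1406 RPM in KO1 and 1290.4 and 1338 RPM in KO2, against 1265 and 1273 RPM in WT GSCs. Eif6, which keeps the ribosomal subunits apart, had 175 and 171 RPM in KO1 and 184 and 177 RPM in KO2, against 182 and 161 RPM in WT GSCs. The libraries of KO and WT overlapped for Eif2ak4, Eif2s3x and Eif6, and none of these 4 genes passed for either KO set.

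Between KO1 and KO2 no gene of the 54 passed edgeR's test, where 0.833% of all genes did; 4 had an unadjusted p under 0.05, DESeq2 called 0, and a fit with the replicate number as a block called 1. Summed markers of other cells also differed between the GSC groups. The 7 fibroblast or feeder markers summed to 36.2 to 36.3 RPM in KO1 and 27.5 to 33.2 RPM in KO2, against 85.5 to 86.2 RPM in WT, with 5, 4 and 6 of the 7 above 3 counts in each library and Lum at 0 in KO2 and WT. The 10 Sertoli markers summed to 58.0 to 60.6 RPM in KO1 and 39.7 to 43.3 RPM in KO2, against 27.5 to 32.6 RPM in WT, with Amh, Cst9, Fshr and Rhox8 at 0 throughout. Their part in the differences was not tested.

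**Figure D2:**
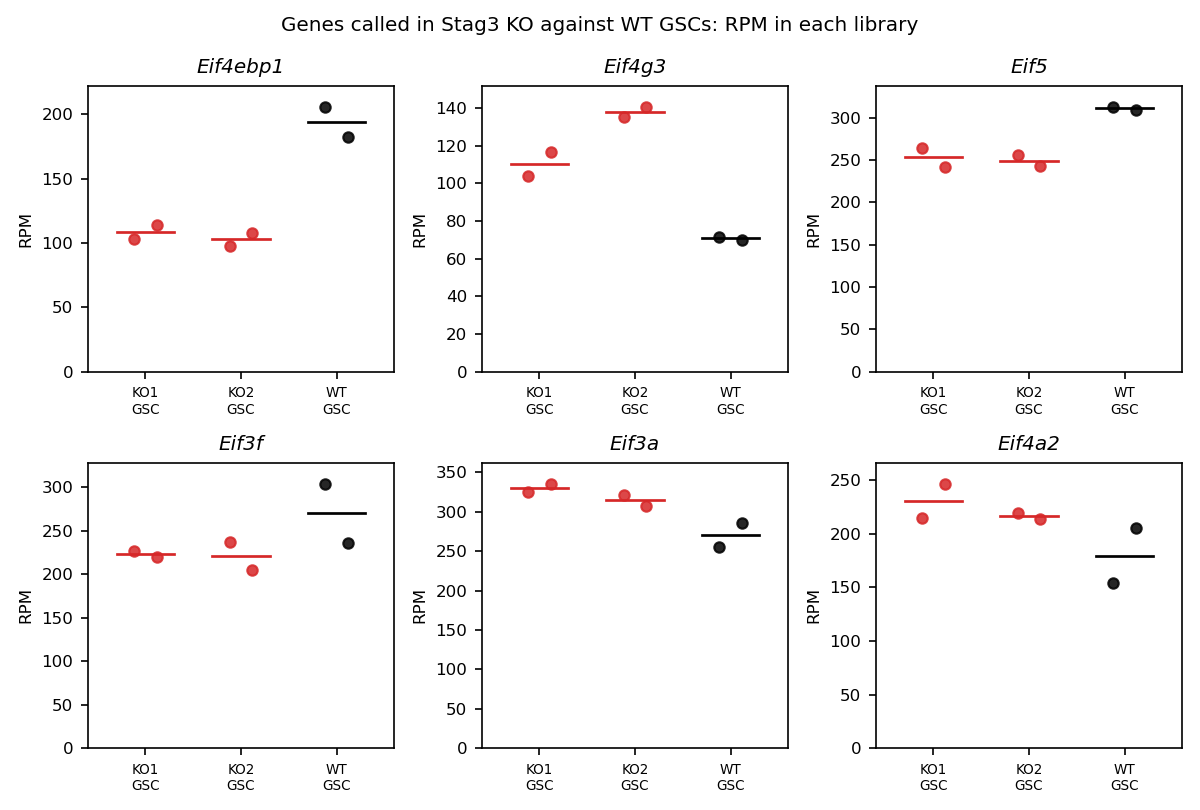
RPM (vertical axis, from 0) of the 6 protein-coding genes called for the KO mean against WT, in KO1 (left), KO2 (middle) and WT (right) GSCs; points are libraries and lines group means, with KO in red and WT in black. Eif4ebp1 and Eif5 lie lower and Eif4g3 higher in all 4 KO libraries, while 1 WT library overlaps the KO range for Eif3f.

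The remaining comparisons follow the genes through germ cell stages in vivo and set those stages against WT GSCs. From E16 to E17 few genes passed. Between E17 and P7, and between the fetal cells and WT GSCs, most did. As shares of the library, Eif5b, Eif3m, Eif4e, Eif4a1 and Eif4a2 were lower in fetal cells than at P7 or in WT GSCs, and Eif3b and Eif4ebp3 were higher. With spike-in scaling all 7 were higher in the mean of E16 and E17 than in WT, and higher at E17 than at P7. That scaling called 14663 of 15827 and 14523 of 14776 genes in these comparisons. E16 alone was not tested against P7 or WT. E17 against E16 had 1 of 54 genes that rose (1.85%, against 1.64% of the 14776 genes tested) and 7 that fell (13.0%, against 4.96%), with 6.6% of all genes called either way. P7 against E17 had 33 that rose (61.1%, against 30.2%) and 10 that fell (18.5%, against 37.8%), with 67.9% of all genes called either way. The mean of E16 and E17 against WT GSCs had 9 that rose (16.7%, against 41.9% of 15827 genes tested) and 31 that fell (57.4%, against 32.3%), with 74.2% of all genes called. P7 against WT GSCs had 7 that rose (13.0%, against 16%) and 12 that fell (22.2%, against 15%), with 31% of all genes called.

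These counts depend on what the libraries are scaled to. The directions below are relative to the bulk of the transcriptome (TMM scaling); spike-in scaling puts the median log2 fold change of all genes at 3.02 for E17 against E16, -4.81 for P7 against E17, 2.87 for fetal cells against WT GSCs and -0.42 for P7 against WT GSCs. With it 53 of 54 genes rose at E17 against E16, 54 fell at P7 against E17, 54 rose for the mean of E16 and E17 against WT, and 34 fell and 0 rose at P7 against WT. Over all genes tested, it called 14508 of 14776 at E17 against E16 and 14523 of 14776 at P7 against E17. It called 14663 of 15827 in fetal cells against WT and 5618 of 15827 at P7 against WT. Outside P7 against WT most genes were called, so the spike-in directions below are not particular to these genes. Below, rises and falls in fetal cells are those of the mean of E16 and E17 against WT. Spike-in results at P7 without a named partner are against E17. E16 alone was not tested against WT or P7. The position of the initiation factor genes within the transcriptome moved less. Their median log2 fold change minus that of all genes tested lay between -0.32 and -0.28 for E17 against E16, between 0.75 and 1.22 for P7 against E17, between -1.35 and -0.63 for fetal cells against WT GSCs and between -0.23 and -0.12 for P7 against WT GSCs, over TMM, total count, spike-in and DESeq2 scaling, no low count filter and the replicate block. The P7 against E17 and fetal against WT comparisons share the E17 libraries. Single libraries moved several of these counts by more than 1.5 times. For E17 against E16 the calls among these genes and among all genes moved together when 1 library was left out. The median of these genes minus that of all genes was -0.28 without either E16 library. It was -0.31 without E17 replicate 1 and -0.23 without E17 replicate 2. The P7 against E17 falls and the P7 against WT rises were fewer when 1 library was left out, as were the calls over all genes.

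Summed markers of other testis cells were higher in the fetal libraries than in WT GSCs. They were also higher than at P7, except that a P7 library lay above both E17 libraries for the erythroid markers. The 10 Sertoli markers summed to 150 to 162 RPM at E16, 156 to 157 RPM at E17 and 68.4 to 106 RPM at P7, against 27.5 to 32.6 RPM in WT GSCs, with 8, 7, 8 and 5 above 3 counts in each library and Amh at 0 in all. The 7 fibroblast markers summed to 164 to 186 RPM at E16, 318 to 339.8 RPM at E17 and 119.7 to 144 RPM at P7, against 85.5 to 86.2 RPM in WT GSCs, with 5, 7, 6 and 6 above 3 counts. The 5 Leydig markers, of which Insl3 was not analysed at P7 so that 4 were summed there, came to 27.3 to 29.9 RPM at E16, 33.5 to 37.2 RPM at E17 and 2.78 to 8.55 RPM at P7, against 1.91 to 2.24 RPM in WT GSCs, with 3, 3, 1 and 1 above 3 counts, Cyp17a1 being at 0 at P7 and Cyp11a1, Cyp17a1, Hsd3b1 and Insl3 in WT. The 4 erythroid markers summed to 105 to 241 RPM at E16, 55.5 to 58.6 RPM at E17 and 11.8 to 82.5 RPM at P7, against 0 RPM in WT GSCs, where all 4 were at 0. The other lists of 4 markers each were also higher in the fetal libraries. Peritubular myoid markers summed to 53.7 to 60.9 RPM at E16, 64.7 to 71.7 RPM at E17 and 9.54 to 20.1 RPM at P7, against 4.73 to 7.62 RPM in WT GSCs, with 3, 3, 2 and 1 above 3 counts. Endothelial markers summed to 21.5 to 32.3 RPM at E16, 36.4 to 39.2 RPM at E17 and 14.2 to 14.8 RPM at P7, against 2.99 to 4.63 RPM in WT GSCs, with 3, 4, 3 and 2 above 3 counts and Emcn at 0 in WT. Macrophage markers summed to 8.1 to 8.45 RPM at E16, 9.82 to 11.5 RPM at E17 and 0.658 to 1.24 RPM at P7, against 0.498 to 0.545 RPM in WT GSCs, with 2, 2, 0 and 0 above 3 counts and Adgre1, C1qa and Csf1r at 0 at P7 and in WT. Their part in the stage differences was not tested.

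**Figure D3:**
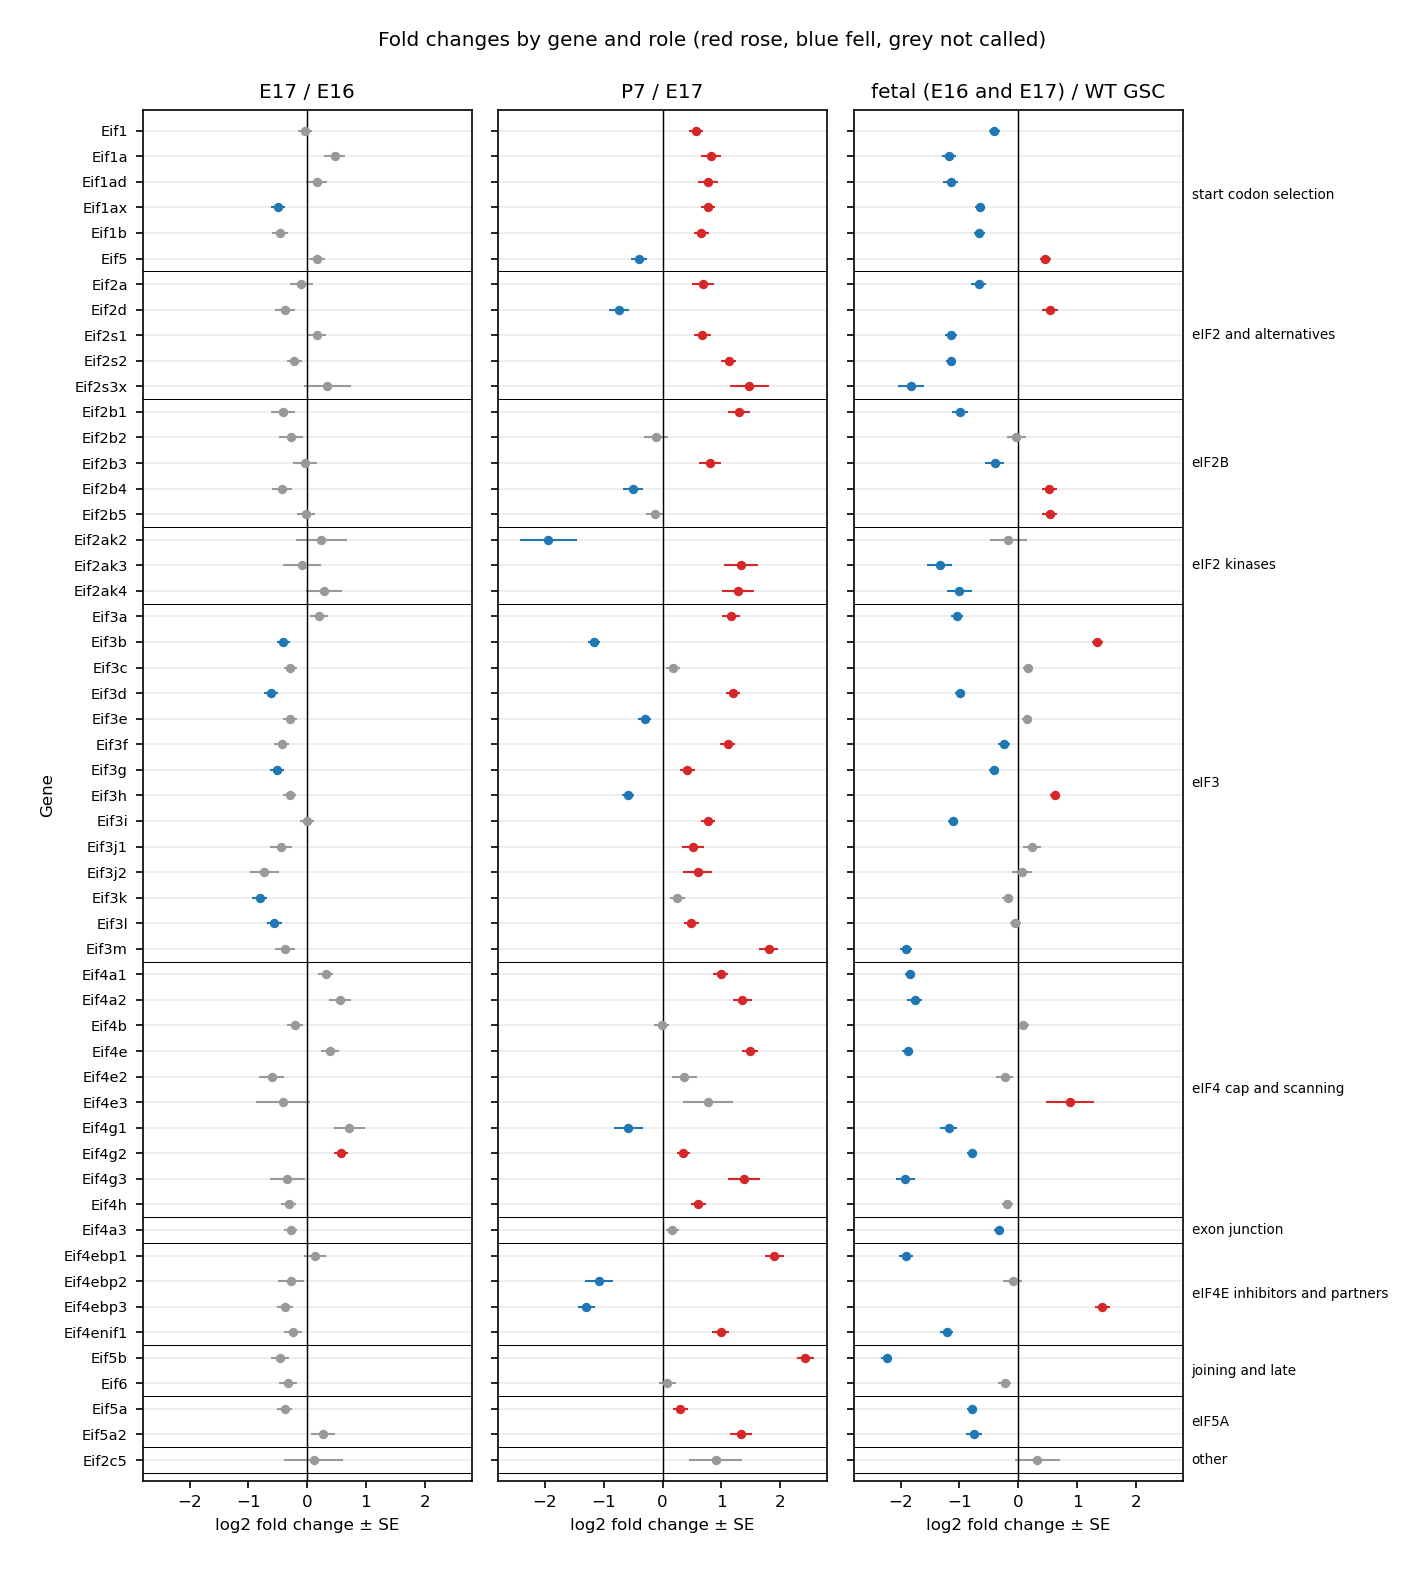
Log2 fold changes with standard errors (horizontal axes) of 53 genes (rows, by role) for E17 over E16, P7 over E17 and fetal cells over WT GSCs, by edgeR on the TMM scale; red rose, blue fell and grey was not called. Eif4a3l1, Eif2ak1 and Eif4e1b are left out, and spike-in scaling would shift whole panels by the amounts given in the text.

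The group labelled start codon selection holds 6 genes: Eif1, Eif1a, Eif1ax, Eif1b, Eif1ad and Eif5. The label is that of the grouping, and a part of Eif1ad in this task is not shown here. Relative to the transcriptome, 5 rose and 1 fell at P7 against E17, where 30.2% of all genes rose and 37.8% fell. In fetal cells against WT GSCs 5 fell and 1 rose, where 32.3% of all genes fell and 41.9% rose. With spike-in scaling all 6 fell at P7 and all 6 rose in fetal cells. The exception to both relative patterns was Eif5, the GTPase activator, with 475 and 325 RPM at E16, 579 and 546 RPM at E17, 394 and 366 RPM at P7, and 312 and 309 RPM in WT GSCs. Both E17 libraries were higher than every P7 and WT library, while 1 E16 library lay below P7. Eif1, which guards the fidelity of start codon choice, had 258 and 253 RPM at E16, 322 and 308 RPM at E17, 436 and 404 RPM at P7, and 339 and 343 RPM in WT GSCs. Eif1a, an eIF1A gene, had 42.7 and 48.9 RPM at E16, 78.6 and 83.2 RPM at E17, 128 and 129 RPM at P7, and 117 and 134 RPM in WT GSCs. The fetal libraries were below the P7 and WT libraries for both genes, with no overlap. Eif1ax, its X-linked copy, fell by 0.50 on the TMM log2 scale at E17 against E16 (SE 0.12, edgeR adjusted p = 0.023). It had 223 and 222 RPM at E17, against 263 and 236 RPM at E16, a smaller difference than on the TMM scale. The call was lost with total count scaling and without either E17 library.

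The 5 genes of eIF2 and its alternatives were all called in comparisons where 67.9% (P7 against E17) and 74.2% (fetal against WT) of all genes were. On the TMM scale 4 rose and 1 fell at P7 against E17, and 4 fell and 1 rose in fetal cells against WT GSCs, while with spike-in scaling all fell at P7 and all rose in fetal cells. Eif2s3x, the X-linked gamma subunit that binds GTP and the initiator tRNA, had 11.9 and 5.28 RPM at E16, 13.3 and 13.1 RPM at E17, 31.2 and 34.6 RPM at P7, and 34.9 and 32.1 RPM in WT GSCs. Fetal libraries were all below the others, and P7 overlapped WT. The log2 fold changes were 1.47 ± 0.34 (SE) for P7 over E17 (edgeR adjusted p = 0.0013) and -1.82 ± 0.23 (SE) for fetal over WT (edgeR adjusted p = 8.1e-09). Eif2s2, the beta subunit, had 232 and 184 RPM at E16, 243 and 207 RPM at E17, 434 and 444 RPM at P7, and 429.6 and 432 RPM in WT GSCs. Fetal levels were again below P7 and WT. Eif2d, which can deliver tRNA without eIF2 and takes part in ribosome recycling, went the other way, with 104 and 84.1 RPM at E16, 89.6 and 92.6 RPM at E17, 47.4 and 50.1 RPM at P7, and 62.6 and 52.6 RPM in WT GSCs. Every fetal library was above every P7 and WT library. Its log2 fold change was -0.75 ± 0.17 (SE) for P7 over E17 and 0.55 ± 0.14 (SE) for fetal over WT, the fetal value being 0.39 and out of the calls without WT replicate 2.

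The subunits of eIF2B, which reloads eIF2 with GTP, were divided. On the TMM scale in fetal cells against WT GSCs 2 of 5 rose (Eif2b4 and Eif2b5), which is 40% against 41.9% of all genes. Another 2 fell (Eif2b1 and Eif2b3), which is 40% against 32.3%. With spike-in scaling all 5 rose. Eif2b1, the alpha subunit, had 52.7 and 42.2 RPM at E16, 43.3 and 46.1 RPM at E17, 107 and 90.3 RPM at P7, and 85.8 and 80.5 RPM in WT GSCs. Eif2b5, the catalytic epsilon subunit, had 115 and 126 RPM at E16, 147 and 155 RPM at E17, 120.0 and 127 RPM at P7, and 82.2 and 87.5 RPM in WT GSCs. E16 and E17 libraries lay above WT for Eif2b5 and below it for Eif2b1. At P7 Eif2b5 stayed above WT with a log2 fold change of 0.41 ± 0.14 (SE; edgeR adjusted p = 0.023), a call that any left-out library of the pair of groups ended, as did the absence of the low count filter and spike-in scaling.

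Of the eIF2 kinases, which slow initiation under stress, Eif2ak3 (PERK, stress of the endoplasmic reticulum) and Eif2ak4 (GCN2) were lower in fetal cells than at P7 or in WT GSCs on the TMM scale. With spike-in scaling both fell at P7 against E17 and rose for the mean of E16 and E17 against WT. Eif2ak3 had 15.4 and 10.9 RPM at E16, 16.2 and 14.7 RPM at E17, 39.5 and 30.6 RPM at P7, and 26.95 and 37.9 RPM in WT GSCs. Eif2ak4 had 17.9 and 11.97 RPM at E16, 25.4 and 19.9 RPM at E17, 57.2 and 41.1 RPM at P7, and 35.1 and 31.1 RPM in WT GSCs. Neither overlapped between E17 and P7, with log2 fold changes of 1.34 ± 0.29 and 1.27 ± 0.27 (SE) on the TMM scale. Eif2ak2 (PKR, double-stranded RNA) had 7.95 and 10.2 RPM at E16, 16.2 and 11.5 RPM at E17, 2.96 and 3.4 RPM at P7, and 14.7 and 8.47 RPM in WT GSCs, with both P7 libraries lowest. Its log2 fold change at P7 was -1.94 ± 0.48 (SE; edgeR adjusted p = 0.0025) against E17, lost without E17 replicate 1, and -1.97 ± 0.43 (SE; edgeR adjusted p = 4.8e-04) against WT. Eif2ak1 (HRI, heme shortage) had 12.4 and 12.3 RPM at E16, 24.9 and 18.3 RPM at E17 and 18.5 and 22.2 RPM in WT GSCs, and its P7 level is not analysed here.

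The 14 eIF3 genes encode the scaffold on which the small subunit is prepared. They did not move as a block on the TMM scale. At P7 against E17, 9 rose (64.3%, against 30.2% of all genes) and 3 fell (21.4%, against 37.8%). In fetal cells against WT GSCs 2 rose (14.3%, against 41.9%) and 6 fell (42.9%, against 32.3%). With spike-in scaling all fell at P7 and all rose in fetal cells. Eif3m, at chr2:104999656-105017027 (- strand), had 123 and 167 RPM at E16, 154 and 131 RPM at E17, 439 and 456 RPM at P7, and 521 and 472 RPM in WT GSCs. Eif3b, at chr5:140419305-140443358 (+ strand), which encodes a core subunit, had 913 and 847 RPM at E16, 840.3 and 841 RPM at E17, 349 and 323 RPM at P7, and 330.0 and 284 RPM in WT GSCs. The 2 genes thus stood on opposite sides, with every fetal library below every P7 and WT library for Eif3m and above every one for Eif3b. Their log2 fold changes for fetal over WT were -1.92 ± 0.10 and 1.35 ± 0.09 (SE), with edgeR adjusted p = 1.2e-18 and 7.3e-16, and for P7 over E17 1.80 ± 0.17 and -1.17 ± 0.11 (SE). With spike-in scaling Eif3m over WT became 0.72 and Eif3b kept its sign at 4.004, against a median of 2.87 over all genes.

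Eif3a, the large scaffold subunit, was like Eif3m lower in every fetal library, with 142 and 101 RPM at E16, 188 and 162 RPM at E17, 371 and 333 RPM at P7, and 255 and 286 RPM in WT GSCs. Eif3d, which can itself bind the cap of some messenger RNAs, had 273 and 269 RPM at E16, 231 and 217 RPM at E17, 451 and 469 RPM at P7, and 454 and 438 RPM in WT GSCs. The fetal libraries were lowest here too. Eif3h was like Eif3b higher in the fetal libraries, with 1117 and 982 RPM at E16, 1077 and 1075 RPM at E17, 663 and 626 RPM at P7, and 620.2 and 636 RPM in WT GSCs, and a log2 fold change of 0.62 ± 0.08 (SE) for fetal over WT. Eif3f stood out at P7, with 264 and 257 RPM at E16, 251 and 237 RPM at E17, 511 and 429 RPM at P7, and 304 and 236 RPM in WT GSCs. Both P7 libraries were above all others, and the log2 fold change of P7 over WT was 0.67 ± 0.12 (SE; edgeR adjusted p = 2.1e-05), lost with spike-in scaling at 0.11. Eif3c was called in none of the stage comparisons, with 451 and 394 RPM at E16, 458 and 416 RPM at E17, 455 and 433 RPM at P7, and 368 and 326 RPM in WT GSCs.

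From E16 to E17, 5 of the 7 falls were eIF3 genes (35.7% of the eIF3 genes, against 4.96% of all genes tested). Their log2 fold changes lay between -0.81 and -0.40 on the TMM scale. With spike-in scaling the named ones rose. Their differences in RPM are smaller than those on the TMM scale. Eif3k had 465 and 453 RPM at E17, against 605 and 661 RPM at E16, a fall of 0.81 on the log2 scale (SE 0.13; edgeR adjusted p = 0.0018) that passed in every alternative except spike-in scaling. Eif3l had 326 and 299.9 RPM at E17, against 334 and 391 RPM at E16, and Eif3g had 428 and 392 RPM at E17, against 438 and 486 RPM at E16. The ages did not overlap for these genes or for Eif3d. The calls of Eif3d (-0.62), Eif3l (-0.56) and Eif3g (-0.51) were lost with total count scaling, under which the median of all genes was 0.34 and 9 of the 54 genes rose and 2 fell, and without either E17 library. Eif3j1 and Eif3j2 are near copies, with 99.5% identity over the last 200 bases of the Eif3j2 transcript, so their reads may be shared and they are reported as uncertain. Eif3j1 had 58.6 and 55.6 RPM at E16, 54.9 and 51.3 RPM at E17, 74.3 and 61.8 RPM at P7, and 45.7 and 39.1 RPM in WT GSCs, so that it was highest at P7 and lowest in WT.

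Among the genes of cap binding and scanning, on the TMM scale 6 of 10 tested fell in fetal cells against WT GSCs (60%, against 32.3% of all genes) and 1 rose (10%, against 41.9%). At P7 against E17 6 rose (60%, against 30.2%) and 1 fell (10%, against 37.8%). In both comparisons 70% were called, where 74.2% (fetal against WT) and 67.9% (P7 against E17) of all genes were. With spike-in scaling all rose in fetal cells and all fell at P7. In fetal cells against WT all 3 kinds of eIF4F subunit were among the falls on the TMM scale. A window from the RefSeq promoter of 1 gene for each kind is shown (GRCm38.p6, 5′ to 3′ on the gene's strand, upstream of the start site that the promoter table uses). The E-box CACGTG, a motif bound by basic helix-loop-helix proteins such as MYC, is in capitals. All 3 genes shown carry the motif, so they do not stand for all eIF4F genes. Eif4a2, Eif4g2 and Eif4g3 also fell and are not among the genes found with it. The Eif4e window is at chr3:138527177-138527236 (+ strand), that of Eif4a1 at chr11:69672580-69672639 (- strand) and that of Eif4g1 at chr16:20672646-20672705 (+ strand), and the motif ends 58 bases before the start site in Eif4e, 183 in Eif4a1 and 48 in Eif4g1. The Eif4e window lies inside the annotated span of the gene, which begins further upstream. Another CACGTG of Eif4e ends 222 bases before the start site and is not shown.
Eif4e: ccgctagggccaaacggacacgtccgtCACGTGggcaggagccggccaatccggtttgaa
Eif4a1: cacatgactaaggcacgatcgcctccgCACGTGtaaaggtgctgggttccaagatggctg
Eif4g1: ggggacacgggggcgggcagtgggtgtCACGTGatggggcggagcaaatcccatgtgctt

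CACGTG reads the same on both strands. It was present in the 250 bases before the start site of 9 of the 44 genes with a promoter entry (20.5%), against 1854 of 27025 genes (6.86%). The 9 were Eif1b, Eif3f, Eif3k, Eif4a1, Eif4e, Eif4g1, Eif4h, Eif5a and Eif5a2. In fetal cells against WT GSCs 7 of these 9 fell and none rose, while of 34 tested genes whose window lacks the motif 19 fell and 6 rose. Of all genes tested 32.3% fell and 41.9% rose. The match is a description of the sequence, and no test was made.

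Eif4e, at chr3:138526191-138559696 (+ strand), had 85.5 and 68.6 RPM at E16, 123 and 131 RPM at E17, 339 and 299 RPM at P7, and 311 and 347 RPM in WT GSCs. Each fetal library lay below every P7 and WT library, and E16 below E17. The log2 fold changes were -1.88 ± 0.10 (SE; edgeR adjusted p = 3.6e-19) for fetal over WT and 1.48 ± 0.14 (SE; edgeR adjusted p = 4.0e-07) for P7 over E17. Eif4a1, the main helicase gene, had 170.0 and 184 RPM at E16, 280.3 and 277 RPM at E17, 468 and 524 RPM at P7, and 729.9 and 714 RPM in WT GSCs, an order in which no neighbouring groups overlapped. The log2 fold change of P7 over WT was -0.67 ± 0.10 (SE; edgeR adjusted p = 1.1e-06). Eif4a2, a helicase gene with a different tissue distribution, had 39.8 and 44.7 RPM at E16, 69.4 and 88.96 RPM at E17, 183 and 183 RPM at P7, and 154 and 205 RPM in WT GSCs, so that P7 lay inside the WT range.

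The scaffolds differed from each other. Eif4g1 had 35.8 and 24.99 RPM at E16, 59.5 and 64.9 RPM at E17, 28.3 and 45.7 RPM at P7, and 87.4 and 90.95 RPM in WT GSCs. It was lowest at E16 and at P7, with a log2 fold change of -1.18 ± 0.15 (SE; edgeR adjusted p = 1.3e-08) for fetal over WT and -1.39 ± 0.18 (SE; edgeR adjusted p = 9.4e-08) for P7 over WT. The log2 fold change of P7 over E17, -0.59 ± 0.25 (SE), became -0.25 without P7 replicate 1 and also missed the threshold without either E17 library, with DESeq2 and with no low count filter. Eif4g3 had 26.3 and 15.8 RPM at E16, 17.9 and 23.03 RPM at E17, 44.7 and 51.9 RPM at P7, and 71.6 and 70.02 RPM in WT GSCs, for which the fetal ages overlapped and WT was the highest of these 4 groups. Its log2 fold changes were -1.92 ± 0.16 (SE) for fetal over WT, 1.39 ± 0.27 (SE) for P7 over E17 and -0.68 ± 0.17 (SE) for P7 over WT. Eif4g2 had 312 and 253 RPM at E16, 539 and 519 RPM at E17, 621 and 592 RPM at P7, and 589 and 622 RPM in WT GSCs, and was the only 1 of the 54 called higher at E17 than at E16 on the TMM scale (log2 fold change 0.58 ± 0.12, SE; edgeR adjusted p = 0.0081). That call was kept with total count scaling, at 0.91, and lost without either E17 library.

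The helicase cofactor Eif4b had 352 and 417 RPM at E16, 421 and 425 RPM at E17, 373 and 379 RPM at P7, and 351 and 344 RPM in WT GSCs, and was called in none of these comparisons. Eif4h, the other cofactor, had 251 and 228 RPM at E16, 253 and 235 RPM at E17, 357 and 311 RPM at P7, and 247 and 253 RPM in WT GSCs, and was called in P7 cells alone, against E17 and against WT. The cap binder Eif4e2 was called in none, with 74.5 and 114 RPM at E16, 79.8 and 79.5 RPM at E17, 87.5 and 97.4 RPM at P7, and 101 and 85.7 RPM in WT GSCs. The weakly detected Eif4e3 had 9.44 and 8.1 RPM at E16, 10.98 and 5.76 RPM at E17, 13.5 and 12.1 RPM at P7, and 4.36 and 3.99 RPM in WT GSCs, higher in every fetal and P7 library than in WT.

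**Figure D4:**
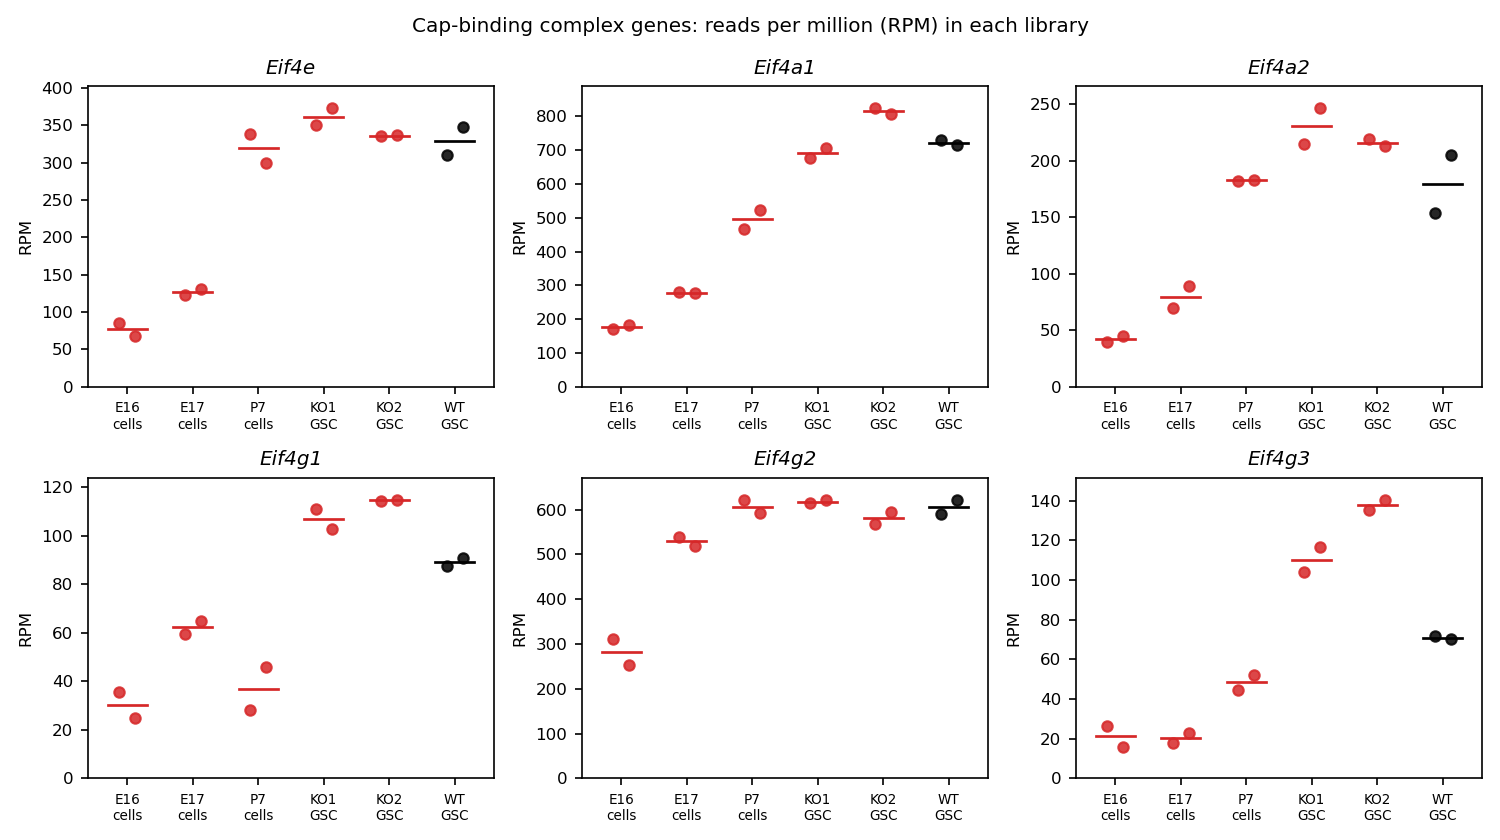
RPM (vertical axes, from 0) of 6 genes of the cap-binding complex in germ cells at E16, E17 and P7 and in KO1, KO2 and WT GSCs; points are libraries, lines are group means, and WT is black. Eif4e, Eif4a1 and Eif4a2 have their lowest values at E16, Eif4g1 is also low at P7, and Eif4g3 is highest in the KO libraries; RPM is relative to the library total, and spike-in scaling would raise the fetal groups.

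The 3 genes for inhibitors of eIF4E differed from each other. Eif4ebp1 had 49.2 and 47.2 RPM at E16, 64.7 and 69.1 RPM at E17, 199 and 249 RPM at P7, and 206 and 183 RPM in WT GSCs. Fetal libraries lay below all others, with log2 fold changes of -1.91 ± 0.12 (SE; edgeR adjusted p = 1.2e-16) over WT and 1.90 ± 0.17 (SE; edgeR adjusted p = 1.8e-07) for P7 over E17, while P7 and WT overlapped. Eif4ebp3 was opposite, with 226 and 218 RPM at E16, 214 and 219 RPM at E17, 85.2 and 72.9 RPM at P7, and 80.3 and 67.5 RPM in WT GSCs. Its changes were 1.43 ± 0.12 (SE; edgeR adjusted p = 1.2e-12) for fetal over WT and -1.30 ± 0.14 (SE; edgeR adjusted p = 1.6e-06) for P7 over E17, and both kept their call in every alternative. Eif4ebp2 stood low at P7, with 45.2 and 38.4 RPM at E16, 46.2 and 40.8 RPM at E17, 19.4 and 17.3 RPM at P7, and 39.8 and 42.9 RPM in WT GSCs. Its log2 fold change was -1.30 ± 0.20 (SE; edgeR adjusted p = 4.2e-06) for P7 over WT and -1.09 ± 0.24 (SE; edgeR adjusted p = 8.9e-04) for P7 over E17. Eif4enif1, the transporter that takes eIF4E into the nucleus, had 103 and 100.3 RPM at E16, 117 and 102 RPM at E17, 196 and 193 RPM at P7, and 213 and 234 RPM in WT GSCs, lowest in the fetal libraries, and passed in fetal cells against WT and at P7 against both.

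Eif5b, at chr1:37998010-38055579 (+ strand), encodes the GTPase that joins the large ribosomal subunit. It had 107 and 126 RPM at E16, 109 and 107 RPM at E17, 545 and 502 RPM at P7, and 505 and 464 RPM in WT GSCs. The fetal libraries were all below the others, and the difference between the ages did not pass. The log2 fold changes were 2.43 ± 0.14 (SE; edgeR adjusted p = 4.2e-09) for P7 over E17 and -2.24 ± 0.09 (SE; edgeR adjusted p = 9.5e-22) for fetal over WT, the largest rise and the largest fall among the 54 genes on the TMM scale. With spike-in scaling the value for fetal over WT was 0.40, against a median of 2.87 over all genes. Eif6 had 180.4 and 142 RPM at E16, 166 and 156 RPM at E17, 138 and 168 RPM at P7, and 182 and 161 RPM in WT GSCs, and was called in none of the stage comparisons.

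Eif5a encodes a factor that helps the ribosome form difficult peptide bonds and carries the modified residue hypusine. It had 778 and 855 RPM at E16, 775 and 818 RPM at E17, 794 and 969 RPM at P7, and 1265 and 1273 RPM in WT GSCs, with every fetal and P7 library below WT and a log2 fold change of -0.66 ± 0.10 (SE; edgeR adjusted p = 2.2e-06) for P7 over WT. Its paralog Eif5a2 had 79.5 and 44.00 RPM at E16, 92.5 and 91.1 RPM at E17, 212 and 205 RPM at P7, and 95.02 and 132 RPM in WT GSCs, with P7 highest and a log2 fold change of 0.75 ± 0.15 (SE; edgeR adjusted p = 1.5e-04) for P7 over WT, lost with spike-in scaling at 0.19. The last 200 bases of the Eif5a2 transcript align to Eif5a over 9 bases.

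**Figure D5:**
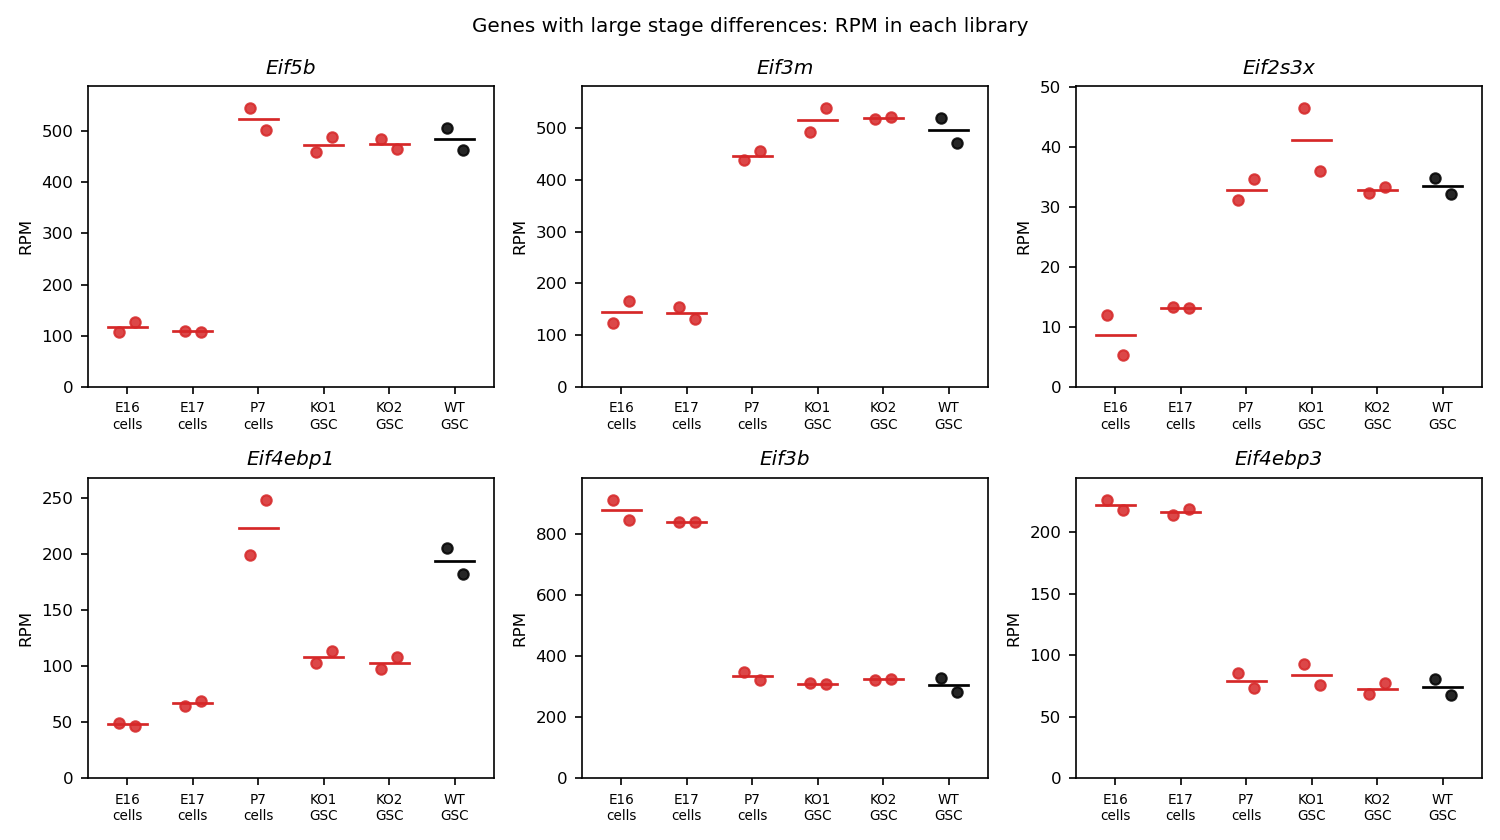
RPM (vertical axes, from 0) of 6 genes with large stage differences in germ cells at E16, E17 and P7 and in KO1, KO2 and WT GSCs; points are libraries, lines are group means, and WT is black. Eif5b, Eif3m, Eif2s3x and Eif4ebp1 are lowest at E16 and E17, and Eif3b and Eif4ebp3 are highest there, as shares of the library. With spike-in scaling, which takes no account of the amount added per cell, the first 4 were above WT for the mean of E16 and E17. E16 alone was not tested against WT.

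Eif4a3, a helicase of the exon junction complex that marks spliced messenger RNA, had 495 and 451 RPM at E16, 488 and 498 RPM at E17, 503 and 489.9 RPM at P7, and 584 and 515 RPM in WT GSCs. WT was the highest of these groups, and every KO library lay above WT. Eif4a3l1, an annotated copy on chromosome 6, was counted at E16 with 31 and 43 reads (15.4 and 15.1 RPM), at E17 with 1 and 1, and at P7 and in WT GSCs with 0. The KO libraries had 2 and 1 reads in KO1 and 1 and 1 in KO2. The ratio of RPM at E16 to that at E17 was 27.8, with an exact 95% interval of 7.42 to 233 that covers counting error only. EdgeR called the fall at E17, but the gene passed the low count filter through its E16 counts alone, so the call is no support. It is counted among the falls at E17 against E16 and among the rises in fetal cells against WT. Its level at E16 was at least 19.5-fold higher than in WT GSCs and at least 15.96-fold higher than at P7, taking 3 counts per library for the groups at 0. Over the last 200 bases its transcript matches that of Eif4a3 at 92.5% of 174 aligned positions, and how the authors assigned shared reads is not given in the sources used here. This gene was named after its values were seen.

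Lists of other genes of translation and its control give the setting. In KO GSCs, 4 of 7 elongation genes fell and none rose, where 10.6% of all genes fell and 8.64% rose, with a median log2 fold change of -0.22, against 0.0021 for all genes tested. Eef2k, the kinase that inhibits elongation factor 2, had 27.7 and 19.9 RPM in KO1 and 21.6 and 19.4 RPM in KO2, against 73.8 and 63.04 RPM in WT GSCs, a log2 fold change of -1.67 ± 0.15 (SE; edgeR adjusted p = 7.8e-17). Eef1a1, the tRNA-delivering factor, had 6577 and 6743 RPM in KO1 and 6690.0 and 6710.1 RPM in KO2, against 8759 and 8879.6 RPM in WT GSCs, a change of -0.45 ± 0.05 (SE). For Eef2, the translocase, the levels were 1173 and 1160.2 RPM in KO1 and 1204 and 1218 RPM in KO2, against 1600.4 and 1505 RPM in WT GSCs, a change of -0.44 ± 0.06 (SE). All KO libraries lay below WT for these 3 genes. Among 10 mTORC1 genes the only call was Mtor, the kinase itself, with 129 and 144 RPM in KO1 and 137 and 127 RPM in KO2, against 200.1 and 184 RPM in WT GSCs (-0.57 ± 0.09, SE). None of 9 tested genes of the integrated stress response rose in KO cells and 3 fell, the transcription factor Atf4 with Trib3 and Ppp1r15a, though DESeq2 called none of the 9, and 1 fell without KO2 replicate 1 or without WT replicate 1. The median of that list was -0.17. Of 5 tested termination and recycling genes Abce1 rose, a call lost with DESeq2, with spike-in scaling and without KO2 replicate 1, and none fell. Of 16 cap and poly(A) partners Paip1 rose, with no rise in the list by DESeq2, without KO2 replicate 2 or without WT replicate 1. Pabpc1 fell, with no fall in the list by spike-in scaling or without WT replicate 2.

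Across stages, relative to the transcriptome, 32.3% of all genes fell and 41.9% rose in fetal cells against WT GSCs, with 74.2% called. At P7 against E17 30.2% rose and 37.8% fell, with 67.9% called. Of 6 termination and recycling genes 5 fell in fetal cells against WT and none rose, and at P7 against E17 5 rose and none fell. With spike-in scaling 5 rose in fetal cells and 5 fell at P7. The medians were -1.10 and 0.99, against 0.23 and -0.13 for all genes tested. Etf1, the release factor, had 90.4 and 91.2 RPM at E16, 122 and 123 RPM at E17, 358 and 306 RPM at P7, and 247 and 272 RPM in WT GSCs. Denr, a recycling factor, had 159 and 107 RPM at E16, 158 and 137 RPM at E17, 298 and 302 RPM at P7, and 395 and 428 RPM in WT GSCs. Fetal libraries were lowest for both genes. One of the 5, Mcts2, was at 0 in the fetal libraries, 44.1 and 53.8 RPM at P7, where the gene list differs, and 0.817 and 0.997 RPM in WT GSCs, near the limit that a count of 0 allows. The cap and poly(A) partners gave 10 of 16 that fell and 4 that rose in fetal cells against WT (all rose with spike-in scaling), with a median of -0.74 on the TMM scale. Among the falls was Bzw1, an eIF5 mimic, at 206 and 172 RPM at E16, 221 and 191 RPM at E17, 741 and 754 RPM at P7, and 630.3 and 735 RPM in WT GSCs. Of 7 elongation genes 4 rose and 3 fell in fetal cells against WT (median 0.21, against 0.23 for all genes tested), of which none fell with spike-in scaling. Of 10 mTORC1 genes 2 rose and 4 fell (median -0.16; all rose with spike-in scaling). Mtor had 593 and 550.2 RPM at E16, 470.4 and 491 RPM at E17, 206 and 203 RPM at P7, and 200.1 and 184 RPM in WT GSCs, highest in the fetal libraries. Of 10 integrated stress response genes 6 rose and 3 fell in fetal cells against WT (median 0.73; all rose with spike-in scaling). The target gene Asns (asparagine synthetase) had 341 and 307 RPM at E16, 343 and 338 RPM at E17, 28.3 and 27.8 RPM at P7, and 63.7 and 67.03 RPM in WT GSCs, highest in the fetal libraries. Its activator Atf4 had 57.6 and 57.4 RPM at E16, 98.2 and 79.02 RPM at E17, 115 and 142 RPM at P7, and 161 and 155 RPM in WT GSCs, lowest in the fetal libraries.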

How the data were processed

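Gene counts were deposited by the authors for each of 12 libraries, 2 in each of 6 groups, made from amplified total RNA by 3′ end sequencing. The submitters' processing notes name cutadapt 1.18, TopHat2 2.1.1, HTSeq 0.9.1, Salmon 1.4.0 and the build GRCm38.p6; no label or file header states how each was used or set. RPM is a count per 1000000 counts, leaving out spike-in, transgene and mitochondrial rows. The authors' deposited scaled column was not used in tests.

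Counts were tested with edgeR 4.0.16 in R 4.3.3 (quasi-likelihood, TMM, filterByExpr by group) over all genes in 3 fits, of the 6 GSC libraries, the 6 in vivo libraries and all 12, with Benjamini-Hochberg adjustment and a threshold of 0.05. The fits were tested on simulated data. Alternatives were DESeq2 1.42.0, no low count filter, total count and spike-in scaling, a replicate block and leaving out each library. Named genes were the 5 largest rises and falls among called genes of at least 20 RPM in the higher group, and a fixed list of eIF2 gamma, kinase, eIF4E, eIF4G, inhibitor, eIF5A and Eif6 genes. Other genes given with values, among them Eif1, Eif2s2, Eif4b, Eef2k and Asns, fall outside this rule and were not fixed in advance. They are not among the 66 named log2 fold changes followed under the alternatives. The replicate numbers of the 2 WT libraries differ between file names and sample titles, and the titles were used. Members and lists were chosen with earlier results of these data known. Sequences are from RefSeq promoters (GRCm38.p6; 44 of 56 matched).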

Additional observations from a re-analysis of the deposited data

How the results depend on the processing

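Of 668 values of 66 named log2 fold changes under the alternatives, 566 kept the call, 72 lost it and 30 changed sign, all 30 with spike-in scaling; 21 fold changes kept the call in every alternative. The cause was not tested. Counts of initiation factor genes moved as follows. For the KO mean, 1 rose with DESeq2, 1 with spike-in scaling and 8 with total count scaling; leaving out 1 library gave 1 to 5. For KO1, 1 rose with DESeq2, 1 with spike-in scaling and 4 with total count scaling (1 to 4 without 1 library), and 2 fell with DESeq2 (1 to 3 without 1 library). For KO2, 5 rose with total count scaling (1 to 4 without 1 library), and 2 fell with DESeq2 and 2 with spike-in scaling (1 to 5 without 1 library). At E17 against E16, 9 rose and 2 fell with total count scaling, and 53 rose and 0 fell with spike-in scaling; without 1 library 0 to 6 rose and 2 to 18 fell. At P7 against E17, 0 rose and 54 fell with spike-in scaling, where 14523 of 14776 genes were called. Fewer fell without 1 library, and fewer of all genes were called. In fetal cells against WT, 54 rose and 0 fell with spike-in scaling, where 14663 of 15827 genes were called. At P7 against WT, 12 rose and 6 fell with total count scaling, and 0 rose and 34 fell with spike-in scaling; without 1 library 2 to 5 rose and 7 to 11 fell.

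With spike-in scaling the log2 fold changes that changed sign were, for E17 over E16, 2.23 for Eif3k, 2.41 for Eif3d, 2.49 for Eif3l, 2.52 for Eif3g and 2.51 for Eif1ax. For P7 over E17 they were -2.27 for Eif5b, -2.77 for Eif4ebp1, -2.89 for Eif3m, -3.21 for Eif4e, -3.20 for Eif2s3x, -3.44 for Eif2ak4, -3.35 for Eif5a2, -3.27 for Eif4g3, -3.36 for Eif2ak3, -4.34 for Eif4g2 and -4.37 for Eif5a. For fetal cells over WT they were 0.40 for Eif5b, 0.73 for Eif4g3, 0.72 for Eif3m, 0.73 for Eif4ebp1, 0.77 for Eif4e, 1.65 for Eif2ak4, 1.92 for Eif5a2, 1.299 for Eif2ak3, 1.87 for Eif4g2, 1.85 for Eif5a, 1.46 for Eif4g1 and 0.83 for Eif2s3x. For P7 over WT they were -0.010 for Eif3j1 and -0.14 for Eif2b5.

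The labels do not say whether the replicate numbers mark a shared batch, and the main fits did not use them. Over 15 pairs of groups the correlation of deviations of same-numbered libraries ran from -0.23 to 0.14. These values cannot settle the point, since the WT numbers differ between file names and sample titles. With the replicate number as a block, 4 genes rose for KO2 against WT and 1 fell for KO1 against KO2; the other counts stayed within 1.5 times and no named fold change lost its call. With the numbers of the 2 WT libraries crossed, an alternative chosen after seeing the data because WT deviated oppositely to E16 and P7, 8 rose and 32 fell in fetal cells against WT, and 7 rose and 13 fell at P7 against WT.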
